A study of Mus musculus with 31 samples.

Results

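The smoke-exposed lungs of the series are 15 of its 31 arrays, chosen by a sample title that names smoke. They come from 4 durations of exposure, with 4 arrays each at 4, 6 and 8 weeks and 3 arrays at 12 weeks. The animals were female BALB/c mice, an inbred strain. Whole lungs were taken after the exposure, and their total RNA, labelled with the dye Cy3, was measured on Agilent mouse miRNA arrays of 1 colour. The other 16 arrays are lungs of female BALB/c mice kept in room air for the same 4 durations, 4 arrays each, and serve as the background of time without smoke. The mice's age, the dose of smoke and whether each array stands for its own animal are questions on which nothing was given in the sources used here. All p-values thus reflect only how far these samples spread, which may be technical. The question is which lung miRNAs differ between longer and shorter smoke exposure, with 4 weeks as the reference.

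MicroRNAs are short RNAs that guide Argonaute proteins to messenger RNAs, mainly through pairing of the seed, bases 2 to 8 of the miRNA, and lower the output of those messengers. Inhaled cigarette smoke draws macrophages and neutrophils into the airways and injures the airway lining, and mice exposed for weeks are used as a model of the early inflammation of chronic obstructive pulmonary disease. In such lungs miR-21, miR-146b and miR-135b are known as miRNAs of inflammation, and the miR-34 and miR-449 family marks multiciliated airway cells, where it acts in the making of cilia. Each duration also has a column of the array slide to itself, and the ages of the mice are not known here, so duration cannot be told apart from array position or from age.

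Mature sequences of miRNAs on which the comparisons turn are shown here, 5′ to 3′, with the seed in capitals, so that members that share a seed can be seen. The sequences were read from RefSeq (GRCm38.p6), in which 202 of the 255 tested miRNAs had a match. miR-135b-5p, miR-34c-5p and miR-150-5p are named only. The inflammation miRNAs miR-21-5p (miR-21a-5p in RefSeq, chr11:86584120-86584141, minus strand), miR-146b-5p (chr19:46342790-46342811, plus strand) and miR-132-3p (chr11:75173723-75173744, plus strand) have different seeds.
miR-21-5p: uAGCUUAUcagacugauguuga
miR-146b-5p: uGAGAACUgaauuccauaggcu
miR-132-3p: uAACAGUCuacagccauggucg

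These members of the miR-34 and miR-449 family share the seed GGCAGUG although they lie on different chromosomes: miR-34a-5p (chr4:150068473-150068494, plus strand), miR-34b-5p (chr9:51103610-51103632, minus strand) and miR-449a-5p (chr13:113037549-113037570, plus strand).
miR-34a-5p: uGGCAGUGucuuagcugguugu
miR-34b-5p: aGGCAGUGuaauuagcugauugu
miR-449a-5p: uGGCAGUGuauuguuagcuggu

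The miR-29 family, whose known targets are collagens and other matrix genes, shares the seed AGCACCA. It is shown by miR-29a-3p (chr6:31062673-31062694, minus strand) and miR-29c-3p (chr1:195037600-195037621, plus strand).
miR-29a-3p: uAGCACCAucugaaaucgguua
miR-29c-3p: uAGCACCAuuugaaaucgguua

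Among the miRNAs with low p that were lower at longer exposure, those shown here have no shared seed. They are both arms of miR-335 (chr6:30741314-30741336 and chr6:30741354-30741375, plus strand), miR-434-3p (chr12:109594565-109594586, plus strand) of the imprinted Dlk1-Dio3 region, and miR-450a-5p, which has a copy at chrX:53048206-53048227 and another at chrX:53048339-53048360, minus strand.
miR-335-5p: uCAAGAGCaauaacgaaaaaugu
miR-335-3p: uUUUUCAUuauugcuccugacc
miR-434-3p: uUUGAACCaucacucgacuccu
miR-450a-5p: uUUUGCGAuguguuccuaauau

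Levels are log2 of the scanner's processed signal, set relative to the 75th percentile of the array, so 0 is the level of a bright probe and the floor of measurement lies at -6.61. Of 611 mouse miRNAs on the array, 255 were detected often enough to be tested and 210 were detected on every smoke array. The 75th percentile signal lay between 1087 and 2366 and the number of detected probes between 429 and 517 per array. The first principal component held 64.1% of the variance. Arrays 2 and 3 of 4 weeks stood apart from the other smoke arrays at its high end, with scores of 9.29 and 4.59. Array 2 of 4 weeks had the lowest 75th percentile signal of all. At the low end lay arrays 2 and 3 of 8 weeks, with scores of -4.62 and -4.90. Those arrays of 8 weeks were not left out together, so how far the 8 weeks differences rest on them was not tested. Between arrays of one duration, the median SD over miRNAs was 0.34 log2 at 4 weeks, 0.11 at 6 weeks, 0.28 at 8 weeks and 0.11 at 12 weeks. In 5 pairs of arrays of the same duration (arrays 1 and 4 of 4 weeks; 1 and 3, 1 and 4, and 3 and 4 of 6 weeks; 1 and 2 of 12 weeks) the values were nearly alike. The SD of their log2 differences was 0.06 to 0.10, against 0.26 to 0.82 in the 16 other pairs of one duration, and their variance was 2.12 to 4.26 times that between repeated spots. Their titles number these arrays as separate samples, and they were kept separate. Whether they share an animal or an RNA was not given, and averaging them was tried as an alternative.

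**Figure D1:**
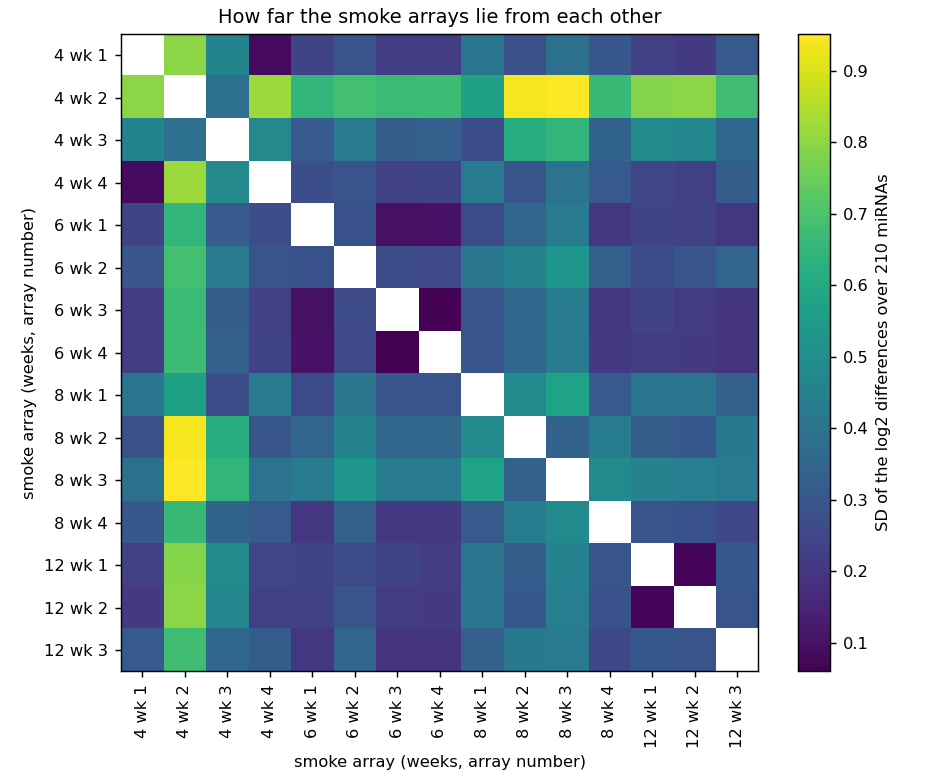
SD of the log2 differences over 210 miRNAs between each pair of the 15 smoke arrays, named by weeks of smoke and array number on both axes; dark cells are pairs that are alike. The 5 darkest pairs share a duration, with an SD of 0.06 to 0.10, and array 2 of 4 weeks is the one farthest from the others.

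The lung's own markers were present on every smoke array, while pancreas and neural markers stood at the floor. The summed level of the 2 endothelial markers ranged from 4.76 to 5.12 log2 over all 15 arrays, that of the 8 lung epithelial markers from 2.92 to 3.34, and that of the 8 leukocyte markers from 3.17 to 3.94. Markers of other organs were high on single arrays. Array 3 of 12 weeks had miR-122-5p, the defining liver miRNA, at 1.63, and its sum over the 3 liver markers was 1.84, against -2.61 to -2.19 on the 12 arrays of the other durations. Array 3 of 8 weeks had a striated muscle sum of 2.91, against at most 1.60 elsewhere, with the skeletal muscle miRNA miR-206-3p at -2.20. miR-206-3p was also above the floor on array 3 of 12 weeks, at -4.39. The cardiac miRNAs miR-208a-3p and miR-499-5p stayed at the floor. miR-208b-3p of the same list was detected on 14 of 15 arrays, at -6.30 to -4.70, and was not highest on array 3 of 8 weeks (-4.99). Leaving out array 3 of 8 and of 12 weeks together is given where it changes a call in the smoke comparisons. In the later test against room air, 1 named miRNA lost its call that way.

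No miRNA passed the test for a difference among the 4 smoke durations: the moderated F test of limma called 0 of 255 (0%) at an adjusted p of 0.05 or less. At an unadjusted p under 0.05 it gave 18 miRNAs (7.06%). The lowest p belonged to miR-135b-5p, miR-21-5p, miR-494-3p, miR-34c-5p, miR-335-5p, miR-434-3p, miR-335-3p, miR-150-5p, miR-450a-5p and miR-139-3p, in that order, and the lowest adjusted p was 0.511. Without the 4 weeks arrays as reference, the F test over 6, 8 and 12 weeks also called 0 (0%) and gave 7 miRNAs (2.75%) at an unadjusted p under 0.05, with a lowest adjusted p of 0.708. Its lowest p belonged to miR-135b-5p, miR-494-3p, miR-146b-5p, let-7d-3p, miR-21-5p, miR-326-3p, miR-31-3p, miR-150-5p, miR-34a-5p and miR-192-5p. The values that follow are therefore levels and differences with their errors, none of which passed the threshold over all miRNAs.

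Each duration against 4 weeks gave the same result of 0 called (0%) by limma. At an unadjusted p under 0.05 there were 13 miRNAs at 6 weeks (5.1%; 7 higher and 6 lower), 34 at 8 weeks (13.3%; 7 higher and 27 lower) and 24 at 12 weeks (9.41%; 8 higher and 16 lower). The median difference over all 255 miRNAs was -0.05 log2 at 6 weeks, -0.15 at 8 weeks and -0.10 at 12 weeks. For 243, 228 and 227 of the 255 miRNAs the 95% interval of the difference lay within 1 log2 on either side of 0. The median width of the interval on each side was 0.38, 0.38 and 0.40 log2. In whole lung, fewer cells of a type and less RNA per cell cannot be told apart.

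The 4 durations did not follow one order. The mean was highest at 4 weeks for 125 of the 255 miRNAs and lowest at 8 weeks for 104. It was higher at each successive duration for 8 miRNAs and lower at each for 35. These counts depend on the 4 weeks arrays and on scaling. At 12 weeks 91 miRNAs had a positive difference from 4 weeks, and 157 had one without arrays 2 and 3 of 4 weeks. Scaling by all probes put the median difference above 0 at 6, 8 and 12 weeks.

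miR-135b-5p, a miRNA induced downstream of the interleukin-1 receptor in inflamed airways, had the largest positive difference at 12 weeks apart from miR-122-5p. The liver miRNA miR-122-5p differed by 1.91 log2, but it was at the floor on arrays 1 and 2 of 12 weeks and high on array 3. Its difference was -0.83 without that array. At 4 weeks miR-122-5p was above the floor only on arrays 2 and 3, at -5.35 and -4.54, so the -0.83 rests on them. The levels of miR-135b-5p were -2.47, -3.01, -2.74 and -2.53 on the 4 arrays of 4 weeks, -2.16, -2.30, -2.28 and -2.22 at 6 weeks, -2.80, -2.49, -2.99 and -1.91 at 8 weeks, and -1.52, -1.58 and -1.98 at 12 weeks. All arrays of 6 weeks and of 12 weeks lay above all arrays of 4 weeks, while 8 weeks overlapped 4 weeks and reached down to its lowest values. The difference from 4 weeks was 0.44 ± 0.20 log2 (SE) at 6 weeks (limma adjusted p 0.795), 0.14 ± 0.20 at 8 weeks (0.631) and 0.99 ± 0.22 at 12 weeks (1.99-fold, 95% interval 0.53 to 1.46 log2, limma adjusted p 0.10). Within slides 1, 2 and 3, which hold both durations, 12 weeks exceeded 4 weeks by 0.95, 1.43 and 0.76 log2. Without arrays 2 and 3 of 4 weeks, the arrays that stood apart, the 12 weeks difference was 0.81 and that of 8 weeks -0.044. The call depended on processing and on single arrays. Array 4 of 8 weeks, the highest of its group for this miRNA, enters the 12 weeks comparison only through the shared estimate of spread. Without it miR-135b-5p passed at 12 weeks (limma adjusted p 0.00864) and in the F test over 4 durations (0.0209). It also passed at 12 weeks without array 3 of 8 and of 12 weeks together (limma adjusted p 0.0427), with quantile scaling (0.0369), and in the authors' series table (0.0420). With the room-air arrays in the fit its adjusted p was 0.000253, but all 16 of them sit at the floor for miR-135b-5p and add no spread, so that value carries no weight.

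miR-21-5p, among the most abundant miRNAs of inflamed and repairing lung, was the other inflammation miRNA that stood high at 12 weeks. Its levels were 4.54, 4.18, 4.48 and 4.57 at 4 weeks, 4.75, 4.43, 4.71 and 4.72 at 6 weeks, 4.60, 4.59, 4.40 and 4.81 at 8 weeks, and 5.00, 5.09 and 4.89 at 12 weeks. The 3 arrays of 12 weeks were the highest of all 15, and the 3 other groups overlapped. The difference at 12 weeks was 0.55 ± 0.13 log2 (1.47-fold, 95% interval 0.27 to 0.84, limma adjusted p 0.121), after 0.21 ± 0.12 at 6 weeks and 0.16 ± 0.12 at 8 weeks. It passed with the room-air arrays in the fit (limma adjusted p 0.00118), where the difference was the same and its SE 0.10. The SD of miR-21-5p was 0.05 to 0.10 in the room-air groups, against 0.10 to 0.18 in the smoke groups. Without arrays 2 and 3 of 4 weeks the 12 weeks difference was 0.44 log2.

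**Figure D2:**
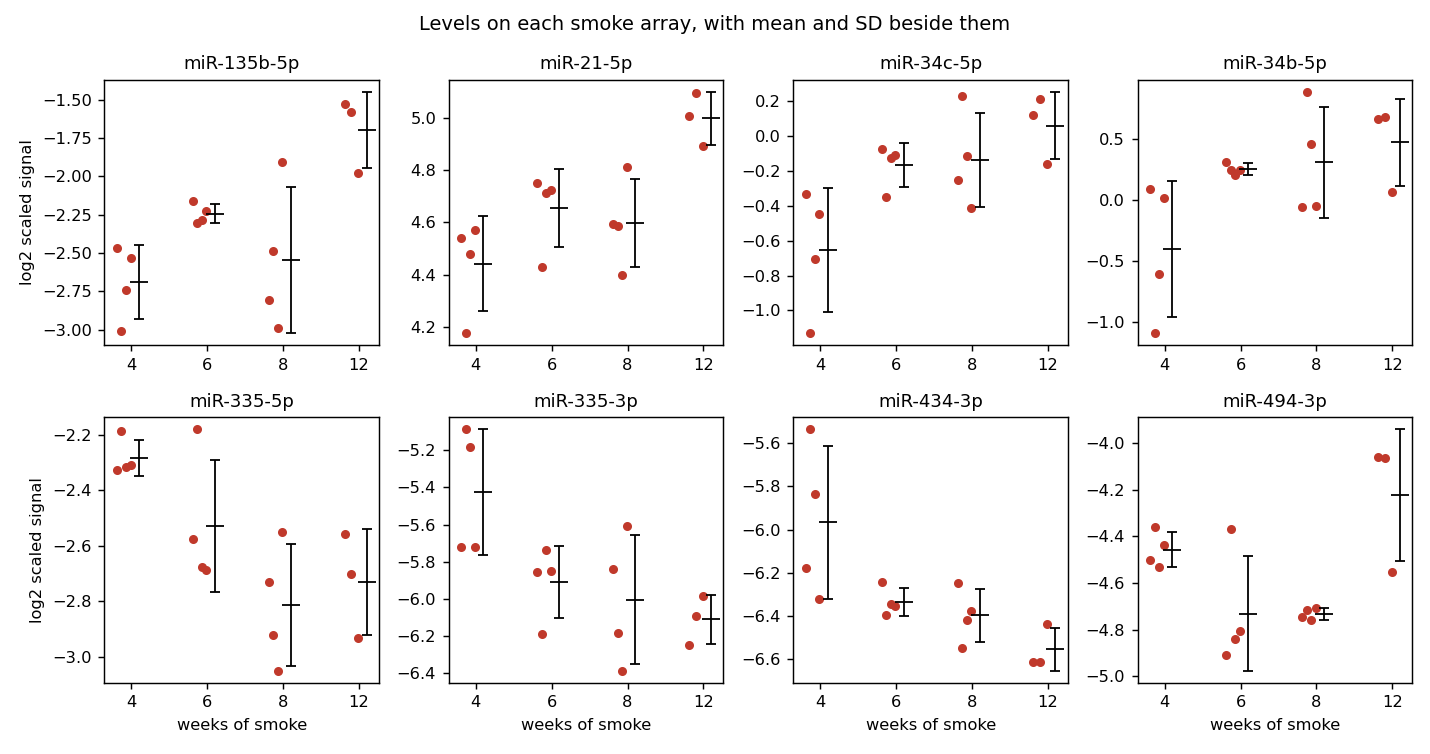
Log2 level, scaled to the array's 75th percentile, of 8 miRNAs on each of the 15 smoke arrays against weeks of smoke; each point is 1 array, and the bar beside it is the mean with the SD. The 3 arrays of 12 weeks lie above every array of 4 weeks for miR-135b-5p, miR-21-5p and miR-34c-5p and below every array of 4 weeks for miR-335-5p, miR-335-3p and miR-434-3p.

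The 9 inflammation-responsive miRNAs, a list drawn from general knowledge with results on these samples known, did not move as one over time. None of the 9 was called in any comparison, and their median difference was 0.04, -0.12 and 0.17 log2 at 6, 8 and 12 weeks. At 12 weeks all 9 lay above the median of all miRNAs (-0.10). Without arrays 2 and 3 of 4 weeks the list's 12 weeks median was 0.44, against 0.054 for all miRNAs, with 8 of 9 above the latter. The NF-kB-induced miR-146b-5p stood at 0.49, 0.85, 0.75 and 0.50 at 4 weeks, 0.71, 0.71, 0.62 and 0.62 at 6 weeks, 0.42, 0.35, 0.19 and 0.63 at 8 weeks, and 0.85, 0.86 and 0.73 at 12 weeks. Of its 8 weeks arrays 3 were below all others, and the arrays of 4 and 12 weeks overlapped, with 0.17 ± 0.13 log2 between their means (limma adjusted p 0.505; 0.32 without arrays 2 and 3 of 4 weeks). miR-132-3p, induced by CREB and by inflammatory signals, ranged from -5.40 to -4.32 within 4 weeks alone. Its group means differed by -0.02 ± 0.25 log2 between 12 and 4 weeks (95% interval -0.56 to 0.52), and by 0.44 without arrays 2 and 3 of 4 weeks. The passenger arm miR-31-3p stood at -5.01, -5.06, -5.01 and -5.01 at 4 weeks, -5.23, -5.12, -5.28 and -5.31 at 6 weeks, -5.14, -5.42, -5.41 and -5.14 at 8 weeks, and -5.01, -4.97 and -5.01 at 12 weeks. All its 6 and 8 weeks arrays were below those of 4 and 12 weeks.

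In the miR-34 and miR-449 family of multiciliated cells, 6 of 6 tested members were above 0 at 6 weeks, 3 at 8 weeks and 5 at 12 weeks. Of 8 listed members 6 were tested, none was called, and the family's median difference was 0.29, 0.04 and 0.38 log2 at 6, 8 and 12 weeks. At 12 weeks all 6 were above the median of all miRNAs. miR-34c-5p stood at -0.33, -1.13, -0.70 and -0.44 at 4 weeks, -0.08, -0.35, -0.12 and -0.11 at 6 weeks, -0.25, 0.23, -0.11 and -0.41 at 8 weeks, and 0.12, 0.21 and -0.16 at 12 weeks. All arrays of 12 weeks lay above those of 4 weeks, the other durations overlapped 4 weeks, and arrays 2 and 3 of 4 weeks were the lowest. The difference was 0.71 ± 0.19 log2 at 12 weeks (1.64-fold, limma adjusted p 0.148), and 0.45 without those 2 arrays.

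Its cluster neighbour miR-34b-5p stood at 0.09, -1.09, -0.61 and 0.02 at 4 weeks, 0.32, 0.25, 0.20 and 0.25 at 6 weeks, -0.05, 0.89, 0.46 and -0.05 at 8 weeks, and 0.67, 0.69 and 0.07 at 12 weeks. The low values again came from arrays 2 and 3 of 4 weeks, and the 12 weeks difference was 0.87 ± 0.28 log2 (limma adjusted p 0.255), or 0.42 without them. miR-449a-5p stood at -2.40, -2.82, -2.74 and -2.43 at 4 weeks, -2.29, -1.90, -2.40 and -2.35 at 6 weeks, -2.76, -1.99, -2.56 and -2.60 at 8 weeks, and -2.12, -2.14 and -2.32 at 12 weeks. The 12 weeks arrays were all above those of 4 weeks (0.40 ± 0.18 log2, limma adjusted p 0.490; 0.22 without arrays 2 and 3 of 4 weeks). The passenger arms miR-34b-3p and miR-34c-3p had differences of -0.01 and 0.14 at 12 weeks. Without arrays 2 and 3 of 4 weeks the family's median was 0.21, 0.25 and 0.43 log2 at the 3 durations, with all 6 members above 0 at 12 weeks. Leaving out those arrays shifted the members' differences in opposite directions, however. The 12 weeks differences of the passenger arms miR-34b-3p and miR-34c-3p became larger, at 0.52 and 0.65 log2. Those of miR-34c-5p, miR-34b-5p, miR-449a-5p and miR-34a-5p became smaller, at 0.45, 0.42, 0.22 and 0.083.

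The miR-29 family had positive differences at each duration, and 2 of its members had them in room air as well. Its 3 members had a median of 0.44, 0.29 and 0.41 log2 at 6, 8 and 12 weeks, above the median of all miRNAs, and none was called. miR-29c-3p stood at 1.58, 0.96, 1.29 and 1.65 at 4 weeks, 1.79, 2.03, 1.69 and 1.73 at 6 weeks, 1.38, 1.81, 1.77 and 1.69 at 8 weeks, and 1.84, 1.80 and 1.69 at 12 weeks. All its arrays of 6 and of 12 weeks were above those of 4 weeks, with 0.44 ± 0.15 log2 at 6 weeks (limma adjusted p 0.795). miR-29a-3p was 0.29 ± 0.10 log2 higher at 6 weeks, again with no overlap. miR-29b-3p, which ranged from -0.19 to 1.90 within 4 weeks, differed by 0.89 ± 0.46 at 12 weeks and by 0.10 without arrays 2 and 3 of 4 weeks. Without them the family's medians were 0.19, 0.17 and 0.16 log2, and all 3 members were above 0 at 12 weeks. In room air miR-29a-3p rose by 0.28, 0.34 and 0.54 log2 at 6, 8 and 12 weeks (limma adjusted p 0.0356, 0.0101 and 2.75e-05), and miR-29c-3p was 0.34 ± 0.13 log2 higher at 12 weeks (0.0710).

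miR-335 lies in an intron of the imprinted Mest gene, and both its arms were lower at the longer durations. miR-335-5p stood at -2.33, -2.19, -2.32 and -2.31 at 4 weeks, -2.57, -2.18, -2.68 and -2.69 at 6 weeks, -2.73, -2.92, -3.05 and -2.55 at 8 weeks, and -2.56, -2.70 and -2.93 at 12 weeks. All arrays of 8 and 12 weeks lay below those of 4 weeks, and array 2 of 6 weeks was as high as 4 weeks. Its difference was -0.53 ± 0.14 log2 at 8 weeks (limma adjusted p 0.318) and -0.45 ± 0.15 at 12 weeks (0.276). The other arm, miR-335-3p, was dim and stood at -5.72, -5.09, -5.18 and -5.72 at 4 weeks, -5.85, -6.19, -5.74 and -5.85 at 6 weeks, -5.84, -6.18, -6.39 and -5.61 at 8 weeks, and -6.25, -6.09 and -5.98 at 12 weeks. Its arrays of 6 and of 12 weeks were all below those of 4 weeks, with a 12 weeks difference of -0.68 ± 0.20 log2 (limma adjusted p 0.196). The differences of its 4 probes ran from -0.68 to 0, and 0 is the value of a probe at the floor in both groups. Without arrays 2 and 3 of 4 weeks the 12 weeks difference was -0.41 for miR-335-5p and -0.39 for miR-335-3p. Within slides 1, 2 and 3 it was -0.23, -0.52 and -0.62 for miR-335-5p and -0.53, -1.0 and -0.80 for miR-335-3p.

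miR-434-3p of the Dlk1-Dio3 region stood at -6.18, -5.54, -5.83 and -6.32 at 4 weeks, -6.24, -6.40, -6.34 and -6.35 at 6 weeks, -6.25, -6.55, -6.42 and -6.38 at 8 weeks, and -6.61, -6.61 and -6.44 at 12 weeks. The 12 weeks arrays were the only ones all below 4 weeks, and 2 of them were at the floor. It was detected on 12 of the 15 smoke arrays, including 2 of the 3 at 12 weeks, and its difference was -0.59 ± 0.16 log2 (limma adjusted p 0.148), or -0.30 without arrays 2 and 3 of 4 weeks. The second of its 2 probes had a difference of 0, the value of a probe at the floor in both groups. miR-450a-5p, from an X-linked cluster, stood at -2.47, -2.37, -2.49 and -2.42 at 4 weeks, -2.58, -2.48, -2.73 and -2.77 at 6 weeks, -2.58, -2.69, -2.85 and -2.60 at 8 weeks, and -2.81, -2.86 and -2.74 at 12 weeks. Its 8 and 12 weeks arrays lay below all those of 4 weeks (12 weeks difference -0.37 ± 0.11 log2, limma adjusted p 0.196; -0.36 without those 2 arrays). Of the Dlk1-Dio3 list 6 of 34 miRNAs were tested and none was called, with 2 of 6 above 0 at 12 weeks and medians of -0.24, -0.30 and -0.35 log2 at 6, 8 and 12 weeks (-0.25 at 12 weeks without those arrays). miR-494-3p of the same region had another pattern, at -4.50, -4.36, -4.53 and -4.44 at 4 weeks, -4.91, -4.37, -4.84 and -4.80 at 6 weeks, -4.75, -4.71, -4.76 and -4.71 at 8 weeks, and -4.06, -4.06 and -4.55 at 12 weeks. Its 8 weeks arrays lay below all those of 4 weeks, and 2 of its 3 arrays of 12 weeks above them. With the room-air arrays in the fit, miR-34c-5p, miR-434-3p and miR-450a-5p passed at 12 weeks (limma adjusted p 0.0198, 0.0202 and 0.0198) and miR-335-5p at 8 weeks (0.0224). The differences themselves were the same in that fit, with a smaller SE.

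**Figure D3:**
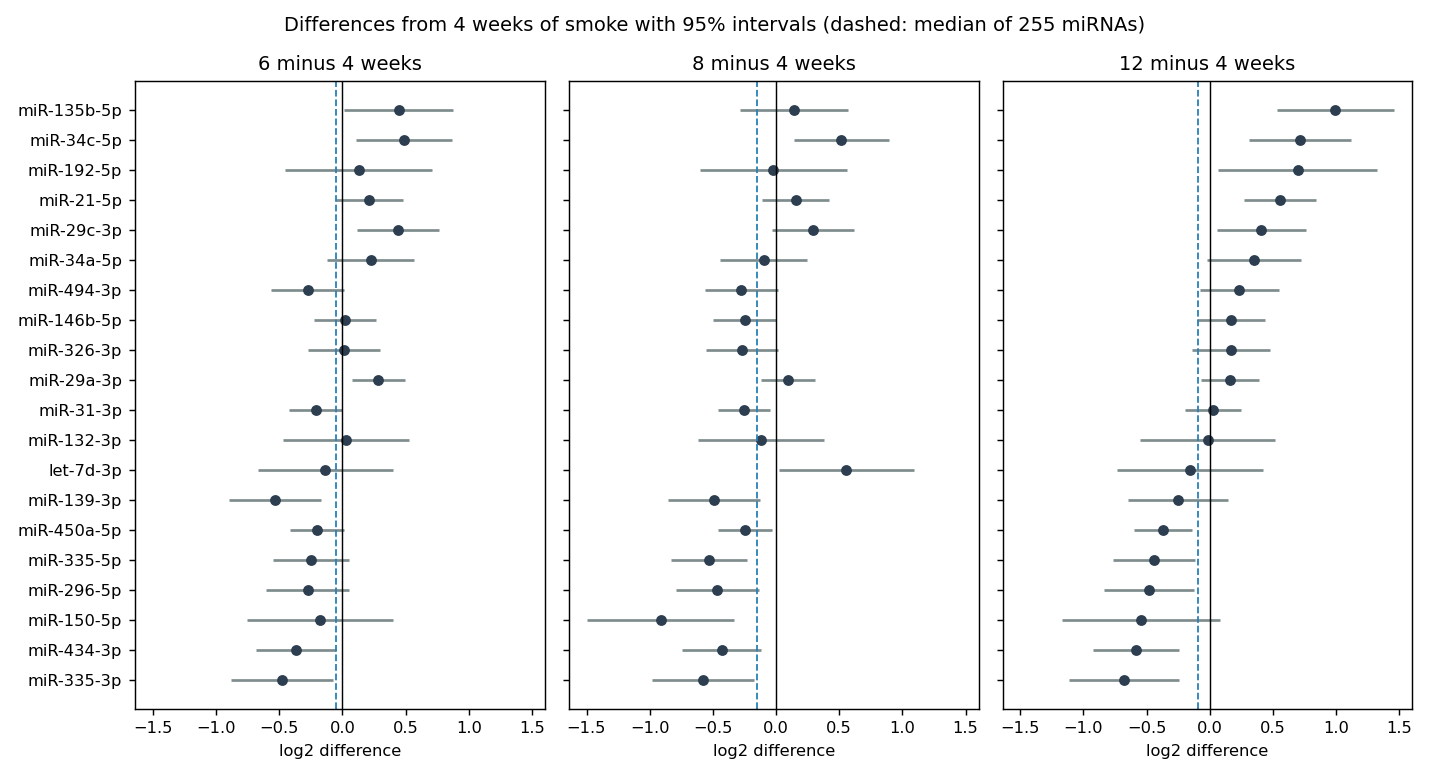
Log2 differences of 6, 8 and 12 weeks of smoke from 4 weeks with their 95% intervals (limma) for 20 named miRNAs; the dashed line is the median of all 255 miRNAs tested. At 12 weeks miR-135b-5p is the highest of those shown, at 0.99, and miR-335-3p the lowest, at -0.68.

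Without overlap between the arrays of 2 durations, 9 miRNAs (3.53%) were higher and 6 (2.35%) lower at 6 weeks than at 4 weeks, 1 (0.392%) higher and 7 (2.75%) lower at 8 weeks, and 12 (4.71%) higher and 13 (5.1%) lower at 12 weeks. The 12 higher at 12 weeks include miR-135b-5p, miR-21-5p, miR-34c-5p, miR-449a-5p, miR-29a-3p, miR-29c-3p, miR-199a-5p and miR-192-5p. The 13 lower include miR-335-5p, miR-335-3p, miR-434-3p, miR-450a-5p, miR-181c-5p, miR-181d-5p and miR-379-5p. miR-192-5p, which the liver also makes, was at -3.24 and -3.21 on arrays 1 and 2 of 12 weeks and at -1.54 on array 3, the array with high miR-122-5p. Its 12 weeks difference was 0.69 log2 with array 3 and 0.13 without it.

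The miRNAs that lay lower with the lowest p at 8 weeks included a lymphocyte miRNA. miR-150-5p, high in mature B and T cells, stood at -1.70, -0.61, -1.33 and -1.71 at 4 weeks, -1.59, -1.08, -1.65 and -1.74 at 6 weeks, -2.14, -2.62, -2.68 and -1.57 at 8 weeks, and -1.98, -2.03 and -1.65 at 12 weeks. 3 of its 4 arrays of 8 weeks were below every array of 4 weeks. The mean difference was -0.91 ± 0.27 log2 (limma adjusted p 0.318), or -0.55 without arrays 2 and 3 of 4 weeks. The 8 leukocyte markers, miR-150-5p among them, did not all share this course. At 8 weeks 2 were above 0 (miR-142-3p at 0.65 and miR-142-5p at 0.45 log2) and 6 below. Those below included miR-342-3p at -0.61 and miR-342-5p at -0.60, or -0.21 and -0.13 without arrays 2 and 3 of 4 weeks. An unadjusted p under 0.05 (limma) was reached by 3 of the 8, against 13.3% of all miRNAs. Their median was -0.18 log2, against -0.15 for all miRNAs. miR-139-3p, an arm of a miRNA from an intron of Pde2a, had its lowest p at 6 weeks, with arrays of -5.47, -5.06, -5.27 and -5.53 at 4 weeks and -5.58, -6.07, -5.87 and -5.95 at 6 weeks. These did not overlap (-0.53 ± 0.17 log2, limma adjusted p 0.795; -0.37 without arrays 2 and 3 of 4 weeks). Single probes were compared at 12 weeks only, where its 2 probes had differences of -0.25 and 0, the latter the value of a probe at the floor.

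Other miRNAs with low p varied in how far their differences rested on arrays 2 and 3 of 4 weeks. let-7d-3p, a passenger arm, stood at -2.26, -2.48, -3.35 and -3.20 at 8 weeks, against -3.57, -2.90, -3.29 and -3.73 at 4 weeks, so its 8 weeks difference of 0.56 ± 0.25 log2 (limma adjusted p 0.333; 0.83 without arrays 2 and 3 of 4 weeks) came with overlap. miR-296-5p, from the imprinted Gnas region, differed by -0.46 ± 0.15 at 8 weeks and -0.48 ± 0.17 at 12 weeks, or -0.21 and -0.23 without arrays 2 and 3 of 4 weeks, and was detected on 12 of 15 arrays. miR-326-3p differed by -0.27 ± 0.13 at 8 weeks and 0.17 ± 0.14 at 12 weeks, or -0.20 and 0.24 without those 2 arrays. miR-34a-5p, a p53-induced member of the miR-34 family, differed by 0.35 ± 0.17 at 12 weeks, or 0.083 without them.

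Several families had medians below that of all miRNAs at 12 weeks. The 9 let-7 miRNAs, which restrain growth genes, had medians of -0.21, -0.33 and -0.30 log2 at 6, 8 and 12 weeks, with 1 of 9 above 0 at 12 weeks. let-7a-5p ranged from 3.99 to 5.13 within 4 weeks, highest on array 2, and differed by -0.37 ± 0.23 at 12 weeks. The 4 miR-181 miRNAs (-0.16, -0.29 and -0.29) and the 5 of the miR-99, miR-100 and miR-125 families (-0.13, -0.37 and -0.31) had no member above 0 at 12 weeks. The Sfmbt2 intron cluster, whose members were dim, had 9 of 39 tested and none above 0 at 12 weeks (median -0.29). That median was -0.038 with normexp, where it was -0.038 for all miRNAs too, and 0 with a floor 4 times higher. None of these lists had a called member. Arrays 2 and 3 of 4 weeks, which hold the high let-7 values, also had the low miR-34c-5p and miR-34b-5p values and the highest scores on the first component. Without them the 12 weeks median turned to 0.085 log2 for let-7, with 9 of 9 above 0, and to 0.11 for the miR-99, miR-100 and miR-125 families, while it was -0.11 for miR-181 and -0.13 for the Sfmbt2 cluster. The median of all miRNAs turned as well, to 0.10, 0.0078 and 0.054 at 6, 8 and 12 weeks, so the lower levels of let-7 at longer exposure rest on these 2 arrays.

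The other lists had 0 called members. At 12 weeks the median was -0.05 log2 for the 8 epithelial miRNAs of the miR-200 family and miR-183 cluster, -0.06 for the 8 smooth muscle and mesenchymal miRNAs, -0.15 for the 5 miR-30 miRNAs, -0.08 for the 6 of the miR-15 and miR-16 family and -0.15 for the 5 of the miR-23, miR-24 and miR-27 clusters. The squamous pair miR-203-3p and miR-205-5p had 0.10, and the miR-17 clusters, which promote growth, 0.13 over 10 tested members, 8 of them above the median of all miRNAs. Scaling by all probes in place of those detected on every array put the median of all miRNAs at 0.18, 0.08 and 0.12 log2 at 6, 8 and 12 weeks. Under it the 12 weeks medians of the 5 lists just given as below 0 were above 0. Under that scaling the list medians at 12 weeks kept their side of the median of all miRNAs for the miR-29, multiciliated, inflammation, let-7, miR-181 and miR-99, miR-100 and miR-125 lists.

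**Figure D4:**
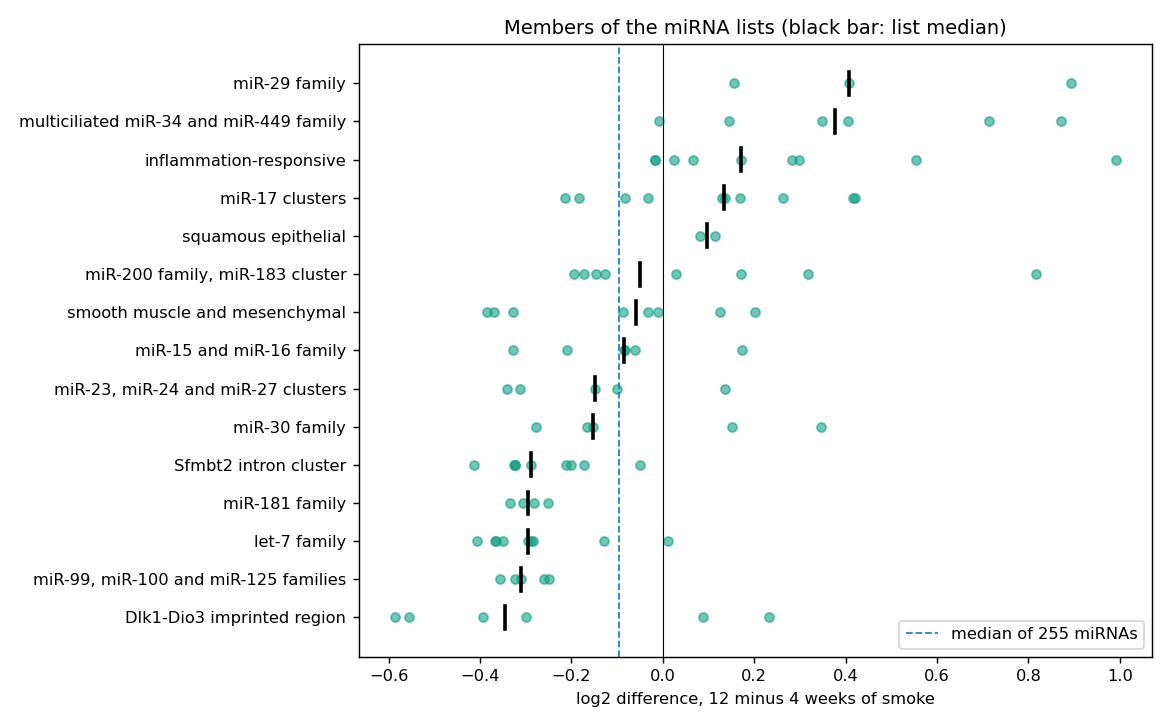
Log2 difference between 12 and 4 weeks of smoke for each tested member of 15 miRNA lists (points), with the list's median (black bar) and the median of all 255 miRNAs (dashed line). The miR-29 and multiciliated lists have medians of 0.41 and 0.38, and the let-7 list has -0.30.

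To see which duration differences also occur without smoke, the same durations were set against each other in room-air lungs. The interaction F test of limma over all 31 arrays called 22 of 267 miRNAs (8.24%), meaning that their duration differences in smoke departed from those in air. The test counts every array as a separate sample. Nearly alike arrays were not looked for in room air, and those of smoke were not averaged here. How far the calls rest on such arrays was not tested. The lowest p was that of miR-449a-5p (limma adjusted p 0.00159). In air its level was -2.59, -2.54, -2.61 and -2.41 at 4 weeks and -3.76, -3.55, -3.68 and -3.67 at 12 weeks, so its mean went from -2.54 to -3.67, while in smoke it went from -2.60 to -2.19. The difference of the 12 weeks differences was 1.53 ± 0.24 log2, and the air arrays of the 2 durations did not overlap.

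At 8 weeks miR-146b-5p, miR-31-5p and miR-335-5p each stood lower relative to 4 weeks in smoke than in air. The smoke minus air difference was -0.52 ± 0.12, -0.68 ± 0.14 and -0.79 ± 0.16 log2 (limma adjusted p of the F test 0.0139, 0.0146 and 0.0146). Part of each was a higher level in air at 8 weeks. The differences from 4 weeks were 0.27, 0.48 and 0.26 log2 in air and -0.25, -0.20 and -0.53 in smoke. miR-494-3p differed most at 6 weeks (-0.73 ± 0.17, limma adjusted p of the F test 0.0161), with 0.45 log2 in air and -0.27 in smoke. The call for miR-135b-5p (0.0199) rests on room-air arrays that all lie at the floor, so its course in air was not measured. The miR-21-5p difference was not called (0.101), nor were miR-34c-5p (0.0587), miR-434-3p (0.304) and miR-450a-5p (0.224). In air, miR-450a-5p fell by 0.33 log2 from 4 to 12 weeks (limma adjusted p 0.0101). The air difference at 12 weeks was -0.31 ± 0.11 for miR-335-5p (0.0710), -0.34 ± 0.13 for miR-434-3p (0.0718), 0.01 ± 0.19 for miR-335-3p and 0.16 ± 0.09 for miR-21-5p (0.181). For miR-29a-3p, which rose in air, the smoke minus air difference at 12 weeks was -0.38 ± 0.11 log2, and its F test was called (0.0413). That call held in 16 of 44 alternatives (limma adjusted p 0.0218 to 0.74). The number of interaction calls ranged from 6 to 49 when single arrays were left out, was 11 without smoke arrays 2 and 3 of 4 weeks, with miR-449a-5p still called by limma, and was 0 with normexp background correction, where 40 miRNAs had an unadjusted p under 0.05.

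**Figure D5:**
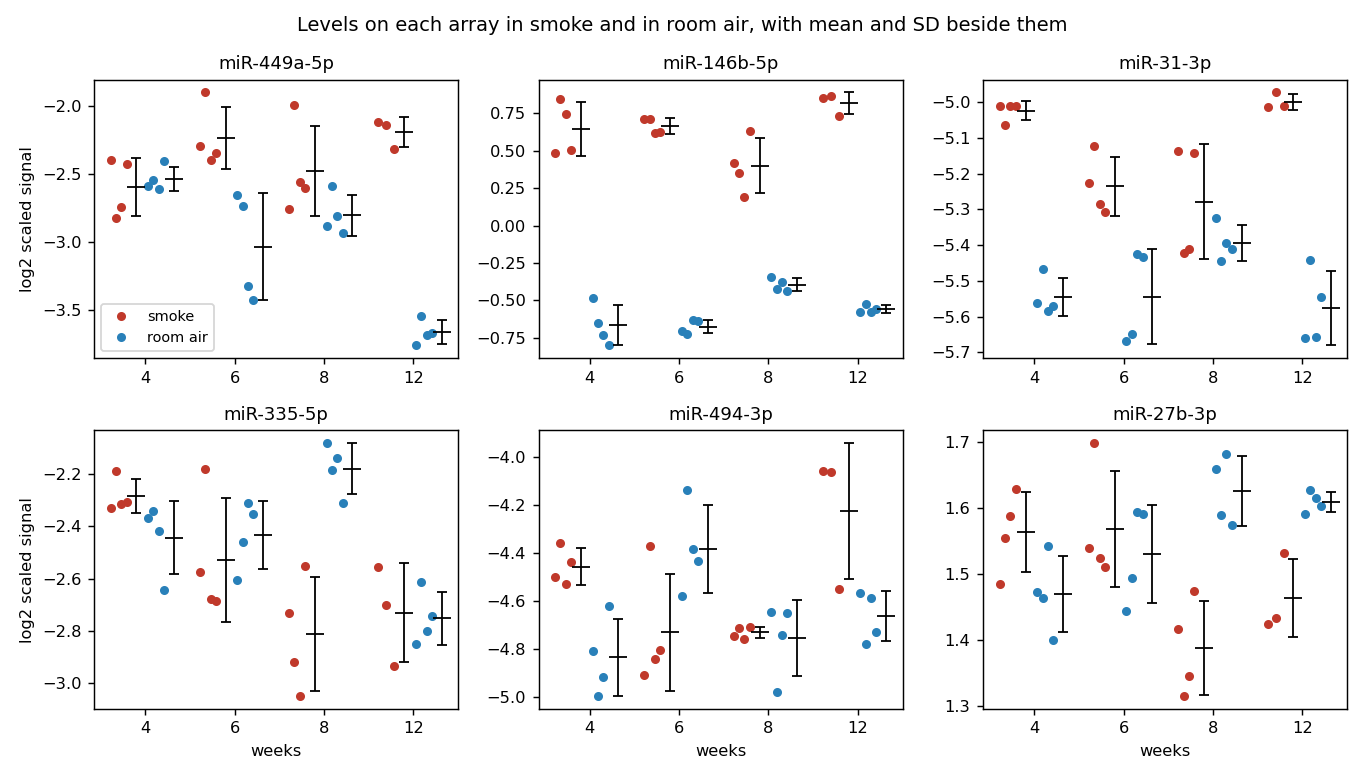
Log2 level, scaled to the array's 75th percentile, on each smoke and each room-air array at 4, 6, 8 and 12 weeks for 6 miRNAs called by the interaction test; points are arrays, and the bar beside them is the mean with the SD. At 12 weeks miR-449a-5p has a mean of -3.67 in room air and -2.19 in smoke, while at 4 weeks the means are -2.54 and -2.60.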

How the data were processed

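Per the file headers, each spot holds an intensity that Feature Extraction 10.7.3.1 corrected for background and spatial trend, with no scaling from array to array. The marks for outlier, saturated and above-background spots come from that software, per the file headers. In the series table the authors deposited log2 values whose normalization was not given in the sources used here. Medians per array of this table are 2.71 to 2.80, and it correlates with the scaled scanner values at 0.982 to 0.988 per array.

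Of 13715 spots per array, controls and spots marked as outliers (297 to 655) were left out and the rest were averaged per probe. Detection of a probe means that 50% of its spots exceed background. Each array was scaled to the 75th percentile of the 397 probes that all 15 smoke arrays detected and set to a floor of log2 -6.61, and the brightest probe stood for each miRNA. A mouse miRNA entered the tests where 75% of the arrays of some smoke duration detected it. The room-air comparison was computed the same way over 31 arrays, with 23 residual degrees of freedom.

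limma 3.58.1 (R 4.3.3) fitted a mean for each smoke duration, and its moderated tests had 11 residual degrees of freedom. p-values were adjusted by Benjamini and Hochberg over all tested miRNAs and called at 0.05 or less. The scripts were tested on simulated data. Named miRNAs are the 10 with the lowest p in each F test, the 5 with the lowest p in each comparison with 4 weeks, up to 4 examples of each list, and miR-21-5p, miR-135b-5p, miR-146b-5p and miR-132-3p. The members, lists and tests were chosen with earlier results of these data known. For smoke arrays the replicate number is also the slide; over 21 same-number pairs the correlation of deviations had a median of 0.04, and 3 of 15 arrays correlated best with their own number, so the numbers were not taken to pair the samples. Normexp used the median spot signal in place of the mean, since that was the column at hand. Other scalings, summaries, filters, left-out arrays and added covariates were tried as alternatives.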

Additional observations from a re-analysis of the deposited data

Results flagged for a closer look

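Over 60 groups of 4 arrays, for 20 named miRNAs, 4 had an array that stood apart from the rest by Dixon's criterion, and chance gives about 1 in 20. At 6 weeks miR-21-5p was 4.43 on array 2, against 4.71 to 4.75 on the others, and let-7d-3p was -2.99 on array 1, against -3.71 to -3.65. At 4 weeks array 2 stood apart for miR-335-5p, at -2.19 against -2.33 to -2.31, and for miR-31-3p, at -5.06 against -5.01 on each of the others.

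The duration differences of 11 named miRNAs departed from those in room air by the limma interaction F test. The adjusted p was 0.00159 for miR-449a-5p, 0.0139 for miR-146b-5p, 0.0146 for miR-31-5p and for miR-335-5p, 0.0161 for miR-494-3p, 0.0199 for miR-135b-5p and for miR-22-5p, 0.0212 for miR-31-3p, 0.0225 for miR-181c-5p, 0.0264 for miR-27b-3p and 0.0413 for miR-29a-3p. All arrays of room air were at the floor for miR-135b-5p, so its course without smoke was not measured.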

How the results depend on the processing

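No miRNA was called in the 5 smoke comparisons as reported, and the replicate block left each at 0 calls (limma) and the interaction at 21. The cause of the following departures was not tested. The F test over 4 durations called 3 miRNAs with room-air arrays in the fit (with miR-135b-5p, whose room-air arrays are all at the floor and add no spread, among those of both F tests and of 12 weeks), and, in alternatives chosen after seeing the data, 6 with the component score as a covariate, 161 with array weights and 50 with the 75th percentile as a covariate. Array weights gave the nearly alike arrays up to 12.9 and array 2 of 4 weeks 0.05. At 6 weeks there were 2 calls with the component score and 116 with array weights. At 8 weeks there were 2 with scaling by all probes, 1 with room-air arrays, 7 with the component score and 101 with the 75th percentile covariate. At 12 weeks there were 1 with quantile scaling, 4 in the series table, 1 without array 3 of 8 and 12 weeks, 5 with room-air arrays, 18 with the component score, 84 with array weights and 13 with the 75th percentile covariate. Over 6, 8 and 12 weeks there were 1 with room-air arrays, 2 with the component score and 110 with array weights. Leaving out single arrays gave 0 to 1 calls at 12 weeks and in both F tests, the 1 being miR-135b-5p without array 4 of 8 weeks, and 0 at 6 and 8 weeks. Averaging the nearly alike arrays (11 left, 7 residual degrees of freedom) called 0, and it was not run for the interaction.

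The interaction's 22 calls became 14 with quantile scaling, 131 with no scaling, 0 with normexp (40 at an unadjusted p under 0.05), 11 with the summed signal, 44 in the series table and 11 without arrays 2 and 3 of 4 weeks. Leaving out single arrays gave 6 to 49. Single smoke arrays that moved it by over 1.5 times were each array of 4 weeks (34, 13, 8 and 49 for arrays 1 to 4), arrays 1 and 2 of 6 weeks (14 and 13), arrays 1, 2 and 4 of 8 weeks (34, 6 and 45) and arrays 1 and 2 of 12 weeks (8 and 10). Room-air arrays that did so were 1 and 4 of 4 weeks (12 and 7), 4 of 6 weeks (14), 1 to 4 of 8 weeks (7, 13, 8 and 12) and 2 to 4 of 12 weeks (11, 12 and 12).

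Signs reversed for the differences that follow. For miR-132-3p at 6 weeks (reported 0.03) the values were -0.019 with normexp, -0.000477 with the mean of probes, -0.072 with the higher floor and -0.062 with alike arrays averaged. At 8 weeks (-0.12) they were 0.12 with all probes, 0.050 with normexp, 0.34 without arrays 2 and 3 of 4 weeks, 0.24 with the component score and 0.23 with weights. At 12 weeks (-0.02) they were 0.22 with all probes, 0.081 with quantile, 0.041 unscaled, 0.030 with normexp, 0.44 without those 2 arrays, 0.31 with the component score, 0.37 with weights and 0.023 with the 75th percentile. miR-135b-5p at 8 weeks (0.14) was -0.026 unscaled, -0.044 without those 2 arrays and -0.055 with weights. At 8 weeks miR-21-5p was -0.011 unscaled and miR-296-5p 0.013 with normexp. miR-146b-5p at 6 weeks was -0.013 with alike arrays averaged. With single arrays left out, miR-132-3p ran from -0.13 to 0.23 at 6 weeks, -0.28 to 0.085 at 8 weeks and -0.17 to 0.19 at 12 weeks, miR-146b-5p at 6 weeks from -0.032 to 0.089, and miR-135b-5p at 8 weeks from -0.072 to 0.29. The higher floor gave no value where both groups sat at it.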
